A study of Homo sapiens with 4 samples.

Results

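The S100 calcium-binding proteins were followed in A549 cells, a line long established from a human lung adenocarcinoma, through 9 genes taken by symbol from the 57905 genes of the deposited count table: S100A2, S100A4, S100A6, S100A10, S100A11, S100A13, S100A14, S100A16 and S100P. RNA was sequenced from 4 libraries, 1 per condition. The conditions were cells with a scramble control hairpin (sc), cells with a hairpin against DCBLD2 (shDCBLD2), cells with the empty vector, and cells with the DCBLD2 overexpression vector. Both vector lines were selected with blasticidin after lentiviral infection, the hairpin lines carried a puromycin vector, and nothing in the sources used here states which of the published hairpins the shDCBLD2 library carries. The DCBLD2 insert was the complete coding sequence behind an EF1 promoter.

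S100 proteins are small proteins with a pair of EF-hand calcium-binding loops, and most of them work as dimers. In most members, though not all, calcium binding opens a hydrophobic face that takes hold of a partner such as an annexin, non-muscle myosin or a receptor. Most S100 genes lie in one cluster on chromosome 1, and several, S100A4 and S100P above all, are known for their association with motility and spread of carcinoma cells. In tissue the family is also used to mark cell types, S100A8 and S100A9 in neutrophils and monocytes and S100B in glia and melanocytes.

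DCBLD2 itself, a transmembrane receptor-like protein, was read first. Its level was 504 counts per 1000000 counts of the scaled library (CPM) in sc and 197 CPM in shDCBLD2, and 434 CPM with the empty vector against 242 CPM in the library labelled DCBLD2 overexpression. The transcript was thus below its control in both manipulated libraries, which goes against the label of the latter, called the overexpression-labelled library from here on. Total counts were between 16601633 and 21537283 per library. All 12 markers of A549 (keratins 8 and 18, aldo-keto reductases and others) were above 3 counts in every library, and their summed level was highest in sc, at 37476 CPM, and lowest in shDCBLD2, at 23113 CPM. EPCAM was far below the others, from 1.21 CPM in shDCBLD2 to 5.33 CPM in the overexpression-labelled library. Among the markers of other cell types, PTPRC, FCGR3A, S100A8 and S100A12 for myeloid cells and FAP for fibroblasts had 0 counts in all libraries. So did S100B and TYR for melanocytes or Schwann cells, SFTPA1 for alveolar type 2 cells, and KRT1, IVL, SPRR1B, DSG3 and S100A7 for keratinocytes. Others of the same lists were detected in every library, among them CD14 (75 to 331 counts), COL1A1 (639 to 1165) and MITF (190 to 301). The keratinocyte marker KRT10 had 688 to 865 counts. Of 10 fibroblast markers, 8 were above 3 counts in the overexpression-labelled library, with a summed level of 82.3 CPM, against 5 or 6 markers and 38.2 to 59.4 CPM in the others. Markers of keratinocytes summed to 67.8 CPM there (3 of 9 above 3 counts) against 36.1 to 48.3 CPM (2 of 9), and those of alveolar type 2 cells to 2.18 CPM (4 of 7) against 1.31 to 1.53 (2 of 7). Markers of myeloid cells summed to 24.1 CPM (4 of 10) against 5.19 to 16.9 (3 to 5 of 10), and those of melanocytes or Schwann cells to 18.7 CPM (3 of 8) against 12.9 to 19.6 (2 to 6 of 8). In the overexpression-labelled library, COL1A1 gave 63.1 CPM of the fibroblast sum, KRT10 52.4 CPM of the keratinocyte sum and CD14 20.1 CPM of the myeloid sum. Lower markers stood further apart there. POSTN had 42 counts against 0 in each of the others, COL1A2 67 against 0 to 17, COL3A1 68 against 6 to 18 and TP63 243 against 43 to 122. Of the detected fibroblast and keratinocyte markers, THY1, PDGFRB and KRT5 did not have their highest CPM in the overexpression-labelled library. The part of the markers of other cell types in the results was not tested. In that library 66 genes reached 50 counts while having 3 or fewer in each of the others, and 0 of the 66 were S100 genes followed here. In RNA from whole cultures, fewer cells that express a gene and less RNA per cell cannot be told apart.

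The summed S100 level was lowest in shDCBLD2 and highest in the overexpression-labelled library. Of all counts, the 9 genes together took 0.239% in sc (exact Clopper-Pearson 95% interval 0.237 to 0.241) and 0.203% in shDCBLD2 (0.201 to 0.205). The share was 0.239% (0.237 to 0.241) for the empty vector and 0.300% (0.297 to 0.303) for the overexpression-labelled library. The intervals of the control libraries overlapped, and those of the other libraries lay apart from them and from each other. These intervals, and all others below, cover counting error only. Since each condition is a single library, no replicate spread is known, and each comparison is one of libraries.

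Per kilobase of exon, the scale on which genes can be compared with one another, S100A6 stood first, with a mean of 926 CPM per kilobase over the 4 libraries (664 to 1117). S100A11 followed with 526 (459 to 595), S100A4 with 472 (301 to 689), S100A10 with 275 (246 to 314) and S100A16 with 125 (109 to 134). S100A13 had 20.5 (16.6 to 27.0), S100P 12.9 (2.06 to 27.7), S100A2 3.65 (2.54 to 5.95) and S100A14 0.179 (0.0363 to 0.474). The range of S100A4 overlapped those of S100A6, S100A11 and S100A10. The ranges of S100A13 and S100P overlapped as well, as did those of S100P and S100A2. In each of the 4 libraries, though, S100A6 stood above S100A4, and S100A4 above S100A10. The order turned around in 1 library for S100A11 and S100A4 (overexpression-labelled), for S100A13 and S100P (overexpression-labelled) and for S100P and S100A2 (shDCBLD2). S100A6 stood between rank 34 and rank 45 among the 13966 genes with a mean of at least 1 CPM, the expression filter used for all counts below. S100A14 did not pass that filter, and the other 8 genes did.

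**Figure D1:**
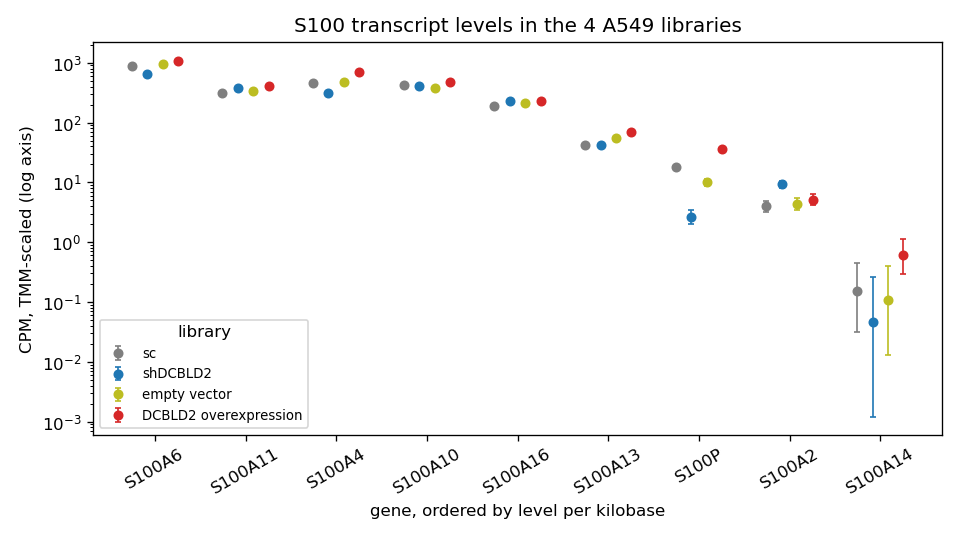
Level of each of the 9 S100 genes in each library, in TMM-scaled CPM on a log axis, with genes ordered by their mean level per kilobase. Points are single libraries and bars are exact Poisson 95% intervals (counting error only). S100P spreads from 2.64 CPM in shDCBLD2 to 35.5 CPM in the overexpression-labelled library, while S100A10, S100A11 and S100A16 stay within 1.30-fold.

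S100P, which binds ezrin and IQGAP1 and acts outside the cell on the receptor RAGE, varied most. Its level was 17.9 CPM in sc (350 counts), 2.64 CPM in shDCBLD2 (57 counts), 9.97 CPM in the empty-vector library (183 counts) and 35.5 CPM in the overexpression-labelled library (586 counts). No counting interval of one library reached that of another. The range from lowest to highest was 3.70 on the log2 scale, against a median of 0.78 over the genes past the filter. Against the empty vector, S100P was 3.53-fold higher in the overexpression-labelled library, a log2 ratio of 1.82 (exact Clopper-Pearson 95% interval 1.59 to 2.08). This ratio ranked 382 from the top of 13966 genes. Against sc, S100P in shDCBLD2 was lower, with a log2 ratio of -2.71 (-3.19 to -2.35), which ranked 52 from the bottom. The controls differed as well, with a log2 ratio of -0.84 (-1.11 to -0.58) between the empty vector and sc, so that with sc as control the ratio of the overexpression-labelled library on the log2 scale was 0.98 (0.80 to 1.18) and no longer 2-fold. Unlike the other 8 genes, S100P lies outside the cluster, on chromosome 4 from 6694796 to 6698897 on the plus strand in the deposited coordinates, and no other deposited gene overlaps it.

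The 250 bases before the annotated start of S100P are printed because this gene varied most. They come from RefSeq on GRCh38.p14, at chr4:6693628-6693877 on the plus strand, and run 5′ to 3′. Capitals mark CAGGTG, the reverse complement of the E-box CACCTG that factors of the Snail and ZEB families bind, 218 to 213 bases before the start, and TATAAA, the TATA box, 28 to 23 bases before it.

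S100P: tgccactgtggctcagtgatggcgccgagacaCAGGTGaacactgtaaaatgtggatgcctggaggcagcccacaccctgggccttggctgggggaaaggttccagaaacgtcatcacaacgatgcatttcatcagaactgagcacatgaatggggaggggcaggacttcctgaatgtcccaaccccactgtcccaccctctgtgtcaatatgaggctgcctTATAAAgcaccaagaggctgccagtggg

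The genes with the pattern most like that of S100P over the 4 libraries were GPR37, RAB37, SELENBP1, SPDEF and B3GNT3, taken from 10835 genes with a mean of at least 5 CPM. GPR37 is an orphan receptor, RAB37 a GTPase of secretory vesicles, SPDEF a transcription factor of goblet cells, B3GNT3 a glycosyltransferase of mucin-type chains and SELENBP1 a selenium-binding protein. Likeness was the root mean square difference of log2 CPM centred over the libraries, which was 0.0627 for GPR37 and 0.190 for B3GNT3. SPDEF stood at 17.3 CPM in sc, 2.64 CPM in shDCBLD2, 13.4 CPM in the empty-vector library and 38.3 CPM in the overexpression-labelled library. With 4 points per gene, all from the same libraries, this is a description.

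**Figure D2:**
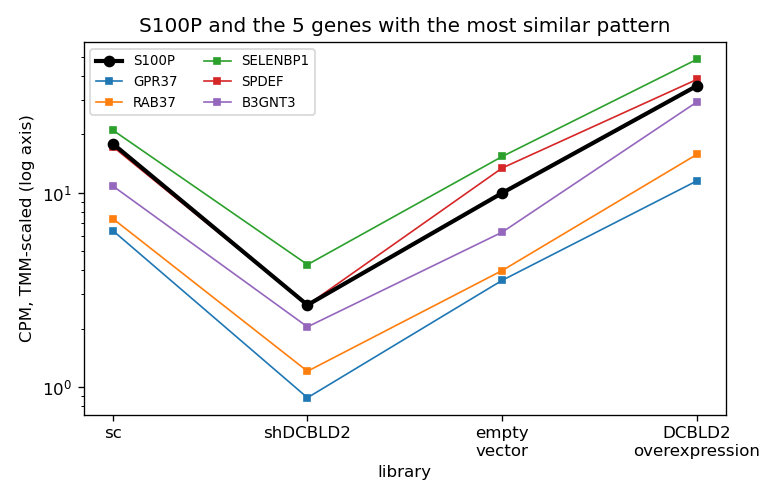
TMM-scaled CPM on a log axis for S100P (black) and the 5 genes with the smallest root mean square difference from it, in each of the 4 libraries. Points are single libraries and lines only join the points of a gene. All 6 genes are lowest in shDCBLD2 and highest in the overexpression-labelled library, with sc above the empty vector.

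S100A2, a nuclear S100 protein of basal epithelium that binds p53, went the other way in shDCBLD2. Its level was 3.99 CPM in sc (78 counts), 9.32 CPM in shDCBLD2 (201 counts), 4.41 CPM in the empty-vector library (81 counts) and 5.15 CPM in the overexpression-labelled library (85 counts). The shDCBLD2 library alone stood apart, and the counting intervals of the other 3 overlapped. Against sc the log2 ratio in shDCBLD2 was 1.20 (0.84 to 1.62), 2.30-fold higher, at rank 105 from the top. The overexpression-labelled library had a log2 ratio of 0.22 (-0.23 to 0.68) to the empty vector, which includes no change.

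S100A2 has a pair of annotated starts in RefSeq, and the 250 bases before the upstream one are printed because they hold the only AP-1 match found among the 13 windows of the 9 genes, AP-1 being the dimer of Fos and Jun proteins. They lie at chr1:153565845-153566094 on the minus strand of GRCh38.p14. Capitals mark TGACTCA, a match to the AP-1 motif TGANTCA, 52 to 46 bases before the start.

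S100A2: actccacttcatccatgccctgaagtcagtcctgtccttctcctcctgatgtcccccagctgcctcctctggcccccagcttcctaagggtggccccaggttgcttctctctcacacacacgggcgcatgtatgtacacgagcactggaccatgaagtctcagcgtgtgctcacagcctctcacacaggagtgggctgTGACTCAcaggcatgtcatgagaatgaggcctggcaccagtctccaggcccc

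S100A4 and S100A6 were both lower in shDCBLD2 than in sc, by less than 2-fold. Their deposited starts lie 9.01 kilobases apart in the cluster, with S100A5 between them. S100A4, also called metastasin, binds non-muscle myosin IIA. It stood at 450 CPM in sc (8797 counts), 309 CPM in shDCBLD2 (6663 counts), 472 CPM in the empty-vector library (8671 counts) and 706 CPM in the overexpression-labelled library (11649 counts). The controls were close to each other, shDCBLD2 was below both and the overexpression-labelled library above both. The log2 ratio was -0.54 (-0.59 to -0.50) for shDCBLD2 against sc and 0.58 (0.54 to 0.62) for the overexpression-labelled library against the empty vector, the latter 1.49-fold. Between the controls it was 0.07 (0.03 to 0.11). S100A3, a cysteine-rich S100 protein of hair cuticle, lies within the deposited bounds of S100A4 on the same strand, so reads could have been counted for either gene. Its own counts were 832, 899, 744 and 677 in the order sc, shDCBLD2, empty vector and overexpression-labelled, and its 3 log2 ratios lay between -0.07 and 0.02, each with an interval that includes 0.

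S100A6, or calcyclin, which binds CACYBP and annexin A11, had the largest counts of the family. Its level was 898 CPM in sc (17577 counts), 645 CPM in shDCBLD2 (13917 counts), 968 CPM in the empty-vector library (17767 counts) and 1085 CPM in the overexpression-labelled library (17908 counts). The order of the libraries was the same as for S100A4, with a narrower spread. Against sc, shDCBLD2 had a log2 ratio of -0.48 (-0.51 to -0.45), and the overexpression-labelled library had one of 0.16 (0.13 to 0.19) to the empty vector. S100A6 gave 38.6% of the counts of the 9 genes in sc and 31.8% in shDCBLD2, and S100A4 gave 19.3% and 15.2%.

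The window before the start of S100A4 is printed to set beside that of S100P, since these are the genes past the filter with the highest ratio of the overexpression-labelled library to shDCBLD2. It lies at chr1:153545807-153546056 on the minus strand of GRCh38.p14. Capitals mark the E-box CACCTG, 164 to 159 bases before the start, and TATAAA, 31 to 26 bases before it.

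S100A4: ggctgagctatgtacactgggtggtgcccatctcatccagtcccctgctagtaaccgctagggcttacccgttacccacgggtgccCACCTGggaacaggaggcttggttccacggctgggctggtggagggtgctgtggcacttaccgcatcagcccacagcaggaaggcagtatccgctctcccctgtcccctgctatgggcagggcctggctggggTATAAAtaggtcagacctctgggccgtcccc

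All 9 genes have entries in the RefSeq table, with 13 starts in all, and the motifs were searched on both strands in the 250 bases before each start. The E-box CACCTG was found in 5 of the 13 windows, for S100A2, S100A4, S100A14, S100A16 and S100P, against 17.5% of all 35116 windows in the table. TATAAA was found in 3 windows, for S100A4, S100A13 and S100P, against 10.7% of all. GGGCGG, the GC box of SP and KLF factors, was found in 5 windows, for S100A6, S100A10, S100A11, S100A13 and S100A16, against 42.6% of all. TGANTCA was found in 1 window against 6.57% of all, and CTTTGNT, the motif of TCF and LEF factors, in 0 against 13.2%. A match is only a run of letters, and these counts say nothing about binding.

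S100A10 and S100A11 are the S100 partners of annexins A2 and A1, with which they bridge membranes. S100A10 stood at 420 CPM in sc (8212 counts), 415 CPM in shDCBLD2 (8947 counts), 379 CPM in the empty-vector library (6957 counts) and 484 CPM in the overexpression-labelled library (7997 counts). It was highest in the overexpression-labelled library, with a log2 ratio of 0.35 (0.31 to 0.40) to the empty vector, and shDCBLD2 could not be told from sc, with -0.02 (-0.06 to 0.03). S100A11 was 312 CPM in sc (6102 counts), 376 CPM in shDCBLD2 (8100 counts), 339 CPM in the empty-vector library (6228 counts) and 404 CPM in the overexpression-labelled library (6673 counts). It was above its control in both manipulated libraries, with log2 ratios of 0.27 (0.22 to 0.32) and 0.25 (0.20 to 0.30).

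The annexins did not follow their S100 partners in the overexpression-labelled library. ANXA2 had 3093 CPM in sc, 2919 CPM in shDCBLD2, 2966 CPM in the empty-vector library and 1800 CPM in the overexpression-labelled library, with a log2 ratio of -0.72 (-0.74 to -0.70) in the last pair. ANXA1 had 805, 642, 662 and 296 CPM in the same order, and its log2 ratio was -1.16 (-1.21 to -1.11). Both were lowest in the overexpression-labelled library, where S100A10 and S100A11 were highest. Per kilobase, S100A10 was 0.776 times ANXA2 in sc, 0.812 times in shDCBLD2, 0.731 times in the empty-vector library and 1.54 times in the overexpression-labelled library. The ratio of S100A11 to ANXA1 per kilobase was 2.60, 3.93, 3.44 and 9.16 in the same order. ANXA2 has processed pseudogenes that could take part of its reads.

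**Figure D3:**
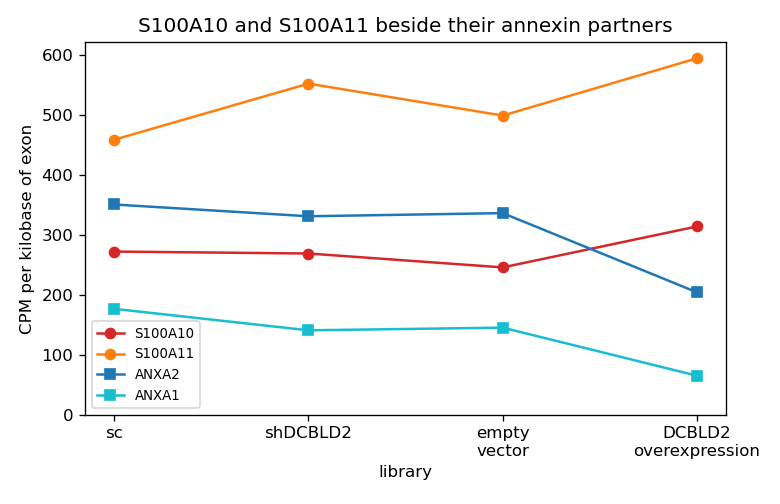
Levels of S100A10, S100A11 (circles) and of ANXA2 and ANXA1 (squares) in CPM per kilobase of exon in the 4 libraries, on an axis that starts at 0. Points are single libraries and lines only join the points of a gene. S100A10 lies below ANXA2 in 3 libraries and above it in the overexpression-labelled library, at 314 against 204 CPM per kilobase.

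S100A16 and S100A13 are less studied intracellular members, S100A13 being known for the release of FGF1 and IL1A from cells. S100A16 stood at 186 CPM in sc (3636 counts), 228 CPM in shDCBLD2 (4911 counts), 210 CPM in the empty-vector library (3855 counts) and 227 CPM in the overexpression-labelled library (3752 counts). Its spread was the narrowest of the family, 1.22-fold, and its pattern was most like that of S100A11, with a root mean square difference of 0.0516. S100A13 was 42.7 CPM in sc (835 counts), 42.5 CPM in shDCBLD2 (917 counts), 55.3 CPM in the empty-vector library (1016 counts) and 68.9 CPM in the overexpression-labelled library (1138 counts). The hairpin libraries were alike and both vector libraries were higher, with a log2 ratio of 0.37 (0.24 to 0.51) between the empty vector and sc and of 0.32 (0.19 to 0.44) between the overexpression-labelled library and the empty vector. S100A13 overlaps 4 other deposited genes, among them CHTOP on the opposite strand, with 1426 to 1772 counts per library. Whether counting used the strand is not given in the sources used here, so the level of S100A13 is uncertain.

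S100A14 was barely detected. It had 3 counts in sc, 1 in shDCBLD2, 2 in the empty-vector library and 10 in the overexpression-labelled library. Only the last lies above 3 counts, taken here as the floor of detection, and its ratio against the empty vector, on the log2 scale, was 1.73 (0.24 to 5.71).

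In the overexpression-labelled library against the empty vector, all 8 genes past the filter had a log2 ratio above 0, and their median was 0.28, against -0.04 over all 13966 genes. For 7 of the 8 the counting interval lay wholly above 0, where 31.9% of all genes did. For 0 of the 8 it lay wholly below, where 36.0% did. Because the genes followed were chosen with earlier results of these data known, this tally does not describe the family independently. Intervals narrow as counts rise, so the shares of all genes, here and below, are not those of genes with like counts. By the stricter rule, a ratio of at least 2-fold with an interval that excludes no change, 1 of the 8 was higher (S100P) and 0 lower, against 6.42% and 5.35% of all genes. At 1.5-fold the same counts held, against 12.8% and 17.8% of all genes. With sc as control all 8 were again above 0, with a median of 0.37, a comparison that shares the overexpression-labelled library with the one above. Against the empty vector, genes with exonic sizes in the range of the 8 (680 to 2558 bases, 2574 genes) had a median of -0.01. S100A3, which passed the filter but was not among the 8, had a log2 ratio of 0.02 (-0.14 to 0.17) there. With sc as control its log2 ratio was -0.05 (-0.20 to 0.10).

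In shDCBLD2 against sc the 8 genes lay on both sides of 0, in shares near those of all genes. The median log2 ratio was -0.01 against 0.01 over all genes. The counting interval lay above 0 for 3 of the 8 (S100A2, S100A11 and S100A16), where 29.8% of all genes did, and below 0 for 3 (S100P, S100A4 and S100A6), where 27.1% did. At least 2-fold, 1 was higher (S100A2) and 1 lower (S100P), against 1.16% and 5.62% of all genes, and at 1.5-fold the counts were again 1 and 1, against 4.93% and 11.6%. S100A10 and S100A13 had intervals that include 0.

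Between the empty vector and sc, the libraries with no intended change to DCBLD2, the median was 0.11 against -0.01 over all genes. DCBLD2 itself had a log2 ratio of -0.21 (-0.26 to -0.17) there. The interval lay above 0 for 5 of the 8, where 26.7% of all genes did, and below 0 for 2 (S100P and S100A10), where 27.8% did. At least 2-fold, 0 of 8 were higher and 0 lower, against 2.22% and 1.89% of all genes, and at 1.5-fold 0 were higher and 1 was lower (S100P), against 7.07% and 6.67%. Genes of the same size range had a median of 0.20 here, with 71.3% of them above 0, where 6 of the 8 S100 genes were. The interval lay wholly above 0 for 44.5% of the genes of that size range. The part of transcript size in this comparison was not tested.

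**Figure D4:**
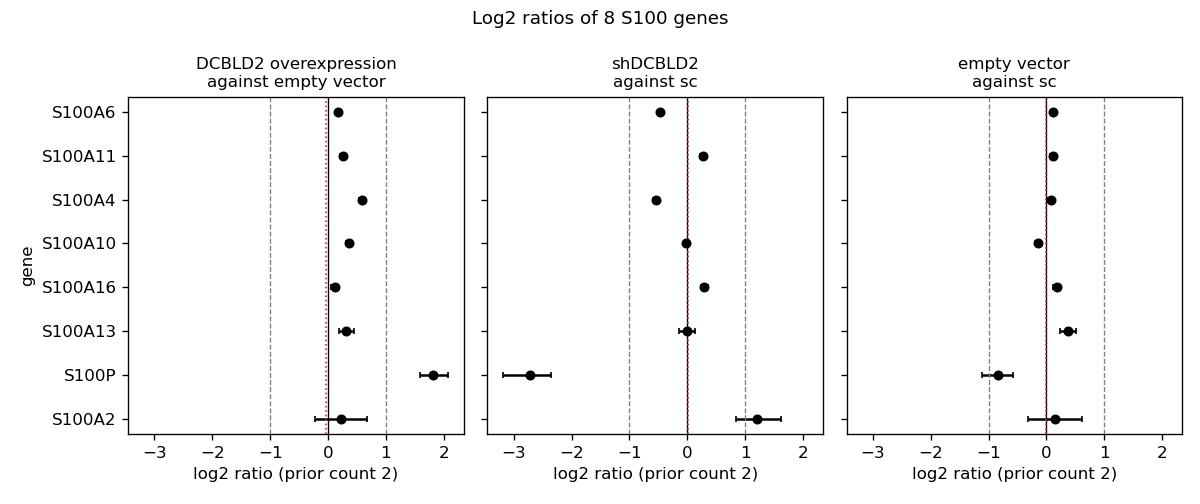
Log2 ratios of the 8 S100 genes past the filter in the 3 comparisons, with exact Clopper-Pearson 95% intervals (counting error only), from 1 library per condition. The dashed lines mark 2-fold, the solid line no change and the dotted red line the median of all 13966 genes. S100P lies beyond 2-fold to the right in the overexpression-labelled library and to the left in shDCBLD2, and S100A2 beyond 2-fold to the right in shDCBLD2.

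Apart from S100A3, the rest of the family was nearly silent. Of 12 other S100 genes, 1 passed the filter (S100A3, at 40.5 to 42.5 CPM). Per kilobase it stood above S100A13, S100P, S100A2 and S100A14 in every library. The genes followed were chosen with earlier results of these data known, so this split does not describe the family independently. S100A1, the S100 protein of heart muscle, had 13, 5, 19 and 17 counts in the order used above, S100A5 8, 5, 11 and 9, and S100A9 5, 0, 0 and 8. S100A7, S100A7A, S100A7L2, S100A8, S100A12, S100B and S100Z had 0 counts in every library, where 3 counts, taken as the limit that a count of 0 allows, would be 0.139 CPM in shDCBLD2 and 0.182 CPM in the overexpression-labelled library. S100G had 1 count in all. The 17 S100 genes on chromosome 1 span 1651 kilobases, between positions 151955391 and 153606568 of the deposited annotation, for which no header gives a build. Another 70 genes lie wholly within that span, and 0 of them passed the filter. Of the 17 S100 genes 8 passed it, and of all 57905 genes 13966 did. Of the 70, 55 had no count in any library, and the largest single count was 24, for FLG. FLG, or filaggrin, is one of 7 fused-type S100 genes, in which an S100 domain heads a long repeat protein. It had 23, 24, 8 and 18 counts, HRNR had 10, 4, 4 and 7, and 0 of the 7 passed the filter.

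Binding partners and receptors of S100 proteins were followed as a list. Of 24 such genes, 20 passed the filter, and their median log2 ratio was 0.01 in the overexpression-labelled library, 0.12 in shDCBLD2 and -0.07 between the controls. At least 2-fold in the overexpression-labelled library, 2 of the 20 were higher and 1 was lower (ANXA1), against 6.42% and 5.35% of all genes. With sc as control 3 were higher (PLAT, SYT1 and PLAUR, the urokinase receptor) and 4 lower (ANXA1, AHNAK, SUGT1 and IQGAP1), against 8.08% and 8.98% of all genes. PLAT, the tissue plasminogen activator that docks on S100A10, had a log2 ratio of 1.39 (1.14 to 1.67), from 9.37 CPM with the empty vector to 24.8 CPM. SYT1, a synaptotagmin exported together with S100A13, had one of 1.16 (0.79 to 1.57), from 4.58 to 10.4 CPM. In shDCBLD2, 0 of the 20 were 2-fold different, where 1.16% of all genes were higher and 5.62% lower. The extremes there were DLC1, a protein that S100A10 binds, with 0.82 (0.63 to 1.02), and ANXA1 with -0.33 (-0.36 to -0.29). PLAU, the urokinase-type activator, was 2-fold higher between the empty vector and sc, with a log2 ratio of 1.09 (1.01 to 1.17).

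Partners of S100P, S100A4 and S100A6 were set beside them. EZR, or ezrin, stood at 486, 638, 404 and 397 CPM in the order used above, highest where S100P was lowest. MYH9, the heavy chain of non-muscle myosin IIA, stood at 1183, 1707, 916 and 947 CPM, highest where S100A4 was lowest. AGER, which encodes RAGE, stood at 1.69, 1.44, 1.47 and 1.88 CPM, lowest and highest in the same libraries as S100P, but at 27 to 33 counts its 3 log2 ratios all had intervals that include 0. IQGAP1, a scaffold of the cell cortex, stood at 203, 231, 149 and 86.4 CPM. CACYBP, a partner of S100A6, stood at 116, 159, 110 and 70.7 CPM, with a log2 ratio of 0.45 (0.37 to 0.53) in shDCBLD2 against sc. ANXA11, or annexin A11, also a partner of S100A6, stood at 264, 248, 299 and 313 CPM. Its libraries had the same order as those of S100A6, with a log2 ratio of -0.08 (-0.14 to -0.03) in shDCBLD2 against sc.

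Calcium sensors with EF hands outside the S100 family were set beside the members. All 22 passed the filter, and in the overexpression-labelled library 9 had a log2 ratio above 0 and 13 below, with a median of -0.25. At least 2-fold, 0 were higher and 1 was lower, CALM2, a calmodulin gene, with -1.11 (-1.15 to -1.06), against 6.42% and 5.35% of all genes. With sc as control the log2 ratio of CALM2 was -0.80 (-0.84 to -0.75). In that comparison 0 of the 22 were 2-fold different, where 8.08% of all genes were higher and 8.98% lower. In shDCBLD2 the median was 0.14, with 0 genes 2-fold different in either direction, against 1.16% of all genes higher and 5.62% lower. The extremes there were EFHD2 with 0.79 (0.74 to 0.84) and CHP1 with -0.68 (-0.75 to -0.61). EFHD2 was nearly as far above sc in the empty-vector library, with a log2 ratio of 0.77 (0.72 to 0.82). The median between the controls was 0.19. The difference between these genes and the S100 genes was not tested.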

How the data were processed

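RNA-seq libraries were made from poly(A) RNA of A549 cells, 1 per condition. Raw whole-number counts for each gene were deposited, beside FPKM values that the authors scaled by exonic size and library total, which were recomputed from the counts to within 0.005. The per-sample files hold the values of the series table. The aligner, the counting program and the strand setting are not given in the sources used here. The submitters' processing notes name the build mm9, a mouse genome, although the deposited gene identifiers are human. The human build of the deposited coordinates is not stated and was not determined.

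TMM factors (0.981 to 1.02) were computed with edgeR 4.0.16, and size factors of DESeq2 1.42.0 as an alternative, under R 4.3.3. Log2 ratios used a prior count of 2. Other steps used Python 3.11.15 with scipy 1.17.1, matplotlib 3.10.9, pandas 2.3.3 and numpy 2.4.6. Of several entries of a symbol, the one with most counts was read. Precision is given by exact Poisson intervals on levels and Clopper-Pearson intervals on ratios, at 95% and for counting error only. No p-value is given. On simulated counts for the overexpression-labelled comparison, the 2-fold rule found 196 of 200 genes simulated with a 3-fold difference and called 18 of 13763 left as they were. Those counts held counting error only and no other variation between libraries, so 18 of 13763 is not the false-call rate of real libraries. Between the empty vector and sc the same rule called 310 genes higher and 264 lower of 13966.

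The members and lists were chosen with earlier results of these data known. Genes named are all members, other S100 genes above 3 counts, list and cluster genes past 2-fold (otherwise the extremes), and the 5 genes most like the member of widest range; partners shown beside a member were chosen after their values were seen. Of the cell type markers, 12 were for A549. Alternatives were other scaling, prior counts of 0.5 and 5, drawn-down counts, a 1.5-fold threshold, other filters and the other control.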

Additional observations from a re-analysis of the deposited data

How the results depend on the processing

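Each condition has 1 library, and DCBLD2 goes against the overexpression label. Counts of 2-fold genes also depended on the control. With sc in place of the empty vector, 0 S100 genes were at least 2-fold higher in the overexpression-labelled library, since S100P came to a log2 ratio of 0.98, and with the empty vector in place of sc the median of the 8 genes in shDCBLD2 was -0.13. The log2 ratio of S100P in shDCBLD2 was -1.87 with that control. Without the expression filter 2 genes were 2-fold higher in the overexpression-labelled library, S100A14 being added with 10 counts. At 1.5-fold, 1 gene (S100P) was lower with the empty vector than in sc. Other scaling, other prior counts, drawn-down counts and a minimum of 5 CPM left each count of 2-fold genes as it was. Of 153 log2 ratios of single genes under the alternatives, 135 stayed within their counting interval, 5 had the other sign, and 0 of the 2-fold ratios changed sign. The 5 were S100A10 (DESeq2 factors, 0.01, and the empty vector as control, 0.13) and S100A13 (DESeq2 factors, 0.02, and drawn-down counts, 0.01) in shDCBLD2, and S100A14 between the controls (drawn-down counts, 0.03). The order of levels per kilobase was the same with the deposited FPKM for all 9 genes. No paired analysis was possible because each condition has 1 library and the labels give no replicate numbers.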
